A study of Mus musculus with 5 samples.

Results

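IgG3 plasma cells of the B220+ spleen were 131 of 2348 cells in the 2 B220+ spleen libraries, and of 5476 cells in the whole series of 5 libraries. They were chosen by their heavy-chain transcripts. A cell was a member when it held at least 10 unique transcript counts (UMIs) over the constant-region genes Ighm, Ighg1, Ighg2b, Ighg2c, Ighg3, Ighe and Igha, and at least 70% of them came from Ighg3. The Ighg3 counts are therefore the selection itself and are given as a description, without a test. The B220+2NBDG+ library held 76 members of 1126 cells and the B220+2NBDG- library 55 of 1222.

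All 5 libraries were single-cell RNA sequencing of plasma cells sorted in 2 rounds as CD138-high, Ly6g- and CD11c- from untreated, unimmunized male C57Bl6/N mice aged 8 to 12 weeks. In the spleen, B220+ and B220- cells were each divided into a 2NBDG+ and a 2NBDG- gate, and the bone marrow gave a single gate of B220-2NBDG+ cells. B220 is a form of the surface protein CD45 that B cells carry and many plasma cells lose, and 2NBDG is a fluorescent glucose analog whose uptake marks cells that import glucose. Each gate was 1 library pooled from 3 mice. IgG3 cells were compared with the other cells of the same library, and with cells called by the same rule for another isotype.

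Plasma cells secrete the antibody whose heavy-chain class the B cell switched to before it matured. In mice, IgG3 is the class known for responses to repetitive carbohydrate antigens that need little T cell help, many of them from marginal zone and B-1 B cells, whereas IgG2c is the class favoured by interferon gamma and the transcription factor T-bet. A plasma cell devotes a large share of its messenger RNA to immunoglobulin and relies on the endoplasmic reticulum (ER) to fold, glycosylate and export it.

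IgG3 cells were about as deep as the other cells of their library. The 5 libraries held between 9451886 and 15591435 UMIs, and the 2 B220+ libraries 15591435 (2NBDG+) and 12635338 (2NBDG-). Median UMIs per cell were 12976 in IgG3 cells and 13850.0 in other cells of the 2NBDG+ library, and 9410.0 and 9840.0 in the 2NBDG- library. Immunoglobulin genes took 66.5% of the UMIs of IgG3 cells and 64.7% of those of other cells in the 2NBDG+ library, and 46.2% and 46.9% in the 2NBDG- library. Single classes varied more, with median UMIs in the 2NBDG- library between 7516 in IgA cells and 11595 in the 10 IgG1 cells. Levels below are CPM, a gene's UMIs scaled to a fixed total of the UMIs that were not immunoglobulin, of which the IgG3 cells held 329616 in the 2NBDG+ library and 309486 in the 2NBDG- library. The 2 libraries shared 1 cell barcode, which was not an IgG3 cell, and doublet calling marked 3 IgG3 cells in the 2NBDG+ library and 0 in the 2NBDG- library.

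In the share of heavy-chain UMIs that came from Ighg3, members stood well apart from the rest of the 2NBDG- library. In the 2NBDG+ library members and other cells came close at the threshold. This share is the selection itself, so the values are a description. The lowest, median and highest shares were 71.7%, 89.6% and 95.4% in the 76 IgG3 cells of the 2NBDG+ library, and 83.4%, 96.5% and 99.1% in the 55 of the 2NBDG- library. Just outside the threshold, the highest share in any other cell was 69% in the 2NBDG+ library and 46.7% in the 2NBDG- library. In the 2NBDG+ library 3 other cells lay between 40% and 70%, and in the 2NBDG- library 1 did. The other cells had a median share of 1.2% in the 2NBDG+ library and 0.0928% in the 2NBDG- library. Ighg3 took 1.12% of heavy-chain UMIs in IgM cells and 1.27% in IgA cells of the 2NBDG+ library, against 0.106% and 0.133% in the 2NBDG- library, so the level of Ighg3 in cells of other classes was about alike within a library and higher in the 2NBDG+ one.

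The label of plasma cell held against the markers. None of 9 plasma cell markers was at 0 in IgG3 cells. Sdc1, which encodes CD138, lay at 625 CPM (2NBDG+) and 414 CPM (2NBDG-) in IgG3 cells, against 535 and 400.0 CPM in other cells. Xbp1, the transcription factor of the secretory program, lay at 6031 and 4475 CPM, against 4259 and 3582 CPM. Of the 9, 5 had a fitted value above 0 against other cells and 4 below; the joining chain gene Jchain, at 140909 and 52581 CPM against 197159.7 and 102026 CPM, and Tnfrsf17, described below, were among the lower. Summed over the 9 B cell markers, IgG3 cells had 2939.8 and 1974 CPM, against 2695 and 2174 CPM in other cells, with Pax5, Cd22 and Fcer2a at 0 in the IgG3 cells of both libraries. Summed T cell markers came to 6.07 and 0 CPM in IgG3 cells, with Cd3d, Cd3e and Cd3g at 0, against 7.56 and 77.2 CPM in other cells. Myeloid markers summed to 57.6 and 22.6 CPM, against 31 and 40.6 CPM, with Lyz2, Csf1r and Adgre1 at 0 in IgG3 cells. Dendritic, NK and erythroid cell markers each summed to at most 12.1 CPM in IgG3 cells.

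IgG3 cells made up a small part of every gate and were most frequent in the B220+ ones. They were 6.75% of cells (exact Clopper-Pearson 95% interval 5.35 to 8.38) in the B220+2NBDG+ library and 4.5% (3.41 to 5.82) in the B220+2NBDG- library. In the B220- spleen they were 16 of 894 cells, or 1.79% (1.03 to 2.89), with 2NBDG uptake and 15 of 1296, or 1.16% (0.649 to 1.9), without it. Bone marrow held 4 of 938, or 0.426% (0.116 to 1.09). Among the IgG-called cells of a library, however, IgG3 took a similar part in both B220+ gates, at 13.8% of 552 cells with 2NBDG uptake and 13.2% of 418 without. Each gate was 1 library and the intervals cover counting error only, so the gates were not tested against each other. The order of the B220+ gates depends on the threshold: at 90% Ighg3 instead of 70%, the shares were 2.84% with 2NBDG uptake and 4.34% without.

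**Figure D1:**
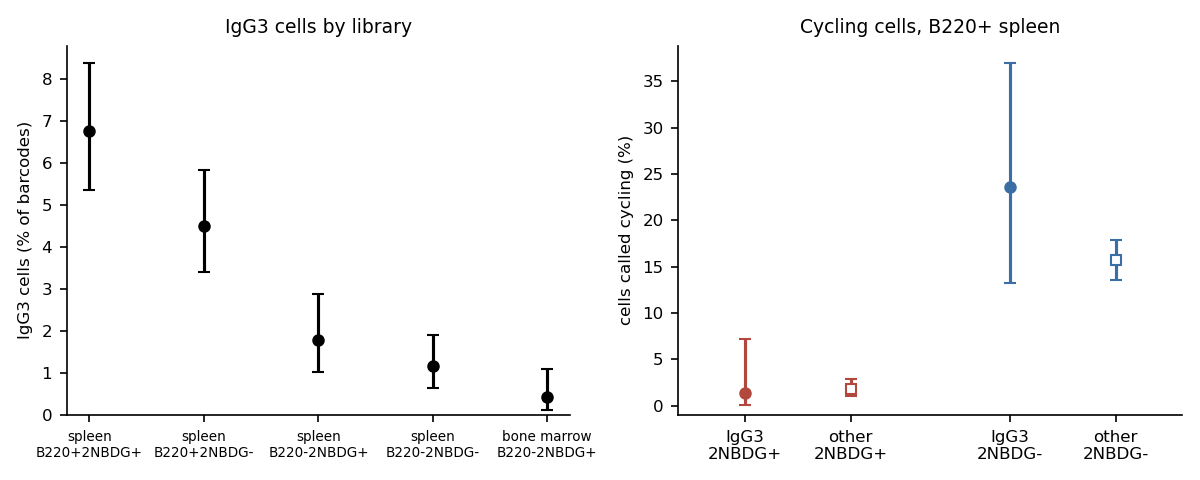
The left panel plots IgG3 cells as a percentage of all barcodes in each of the 5 libraries, and the right panel cells called cycling as a percentage of IgG3 cells (filled circles) and other cells (open squares) of the B220+ spleen, in the 2NBDG+ (red) and 2NBDG- (blue) library. Bars are exact 95% intervals that cover counting error only; the B220+ spleen libraries hold 6.75% and 4.5% IgG3 cells, and 1.33% of IgG3 cells with 2NBDG uptake and 23.6% without it were called cycling.

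Set against all other cells of the same library, IgG3 cells had low levels of the ER enzyme gene Txndc5 and high levels of the nuclease gene Pld4. Of 8469 genes tested, 2 passed an adjusted p of 0.05 (0.0236% of those tested, 0.0118% higher and 0.0118% lower) by edgeR's quasi-likelihood test on sums per library with the library as a block. At an unadjusted p under 0.05 there were 538 genes, and DESeq2 called 5. Whether the 2 libraries came from different mice is not stated in the labels, so these p-values measure the spread between 2 libraries and no more.

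Txndc5 (ENSMUSG00000038991, GRCm38 chromosome 13, 38500079 to 38528824, minus strand) encodes a protein disulfide isomerase of the ER, one of the enzymes that form the disulfide bonds of secreted proteins. It lay at 810.0 CPM (2NBDG+) and 630.1 CPM (2NBDG-) in IgG3 cells, against 2347 and 2597 CPM in other cells. Both IgG3 sums were far below both sums of other cells. The fitted difference was -1.89 on the log2 scale (SE 0.14, edgeR adjusted p = 0.0133), that is 3.71-fold lower in IgG3 cells. The transcript was widely spread over cells, with a UMI in 68 of 76 and 48 of 55 IgG3 cells. After thinning to 2000 non-immunoglobulin UMIs per cell, which left out 9 and 6 shallower IgG3 cells, 83.6% (exact 95% interval 72.5 to 91.5) and 67.3% (52.5 to 80.1) of IgG3 cells had a UMI of Txndc5, against 89.5% and 89.7% of other cells; unthinned, the shares were 89.5% and 87.3% against 94.7% and 94.4%.

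Pld4 (ENSMUSG00000052160, GRCm38 chromosome 12, 112760655 to 112768990, plus strand) belongs to the phospholipase D family and encodes an exonuclease of endosomes and lysosomes that degrades single-stranded nucleic acids. It lay at 349 and 317 CPM in IgG3 cells, against 119 and 97.4 CPM in other cells, with no overlap between the groups. It was 2.85-fold higher in IgG3 cells (log2 1.51, SE 0.13, edgeR adjusted p = 0.0228), a call that was lost when only cells with another isotype call served as reference. The gene lies 587 kb from Ighg3 (ENSMUSG00000076615, chromosome 12, 113356224 to 113361232, minus strand). A UMI of Pld4 was found in 45 of 76 and 35 of 55 IgG3 cells. After thinning, 43.3% (31.2 to 56) and 36.7% (23.4 to 51.7) of IgG3 cells had one, against 19% (16.5 to 21.6) and 13.8% (11.7 to 16) of other cells; unthinned, 59.2% and 63.6% against 33.4% and 26%. IgA cells of the same libraries gave 2.22% and 1.47% after thinning, the lowest shares of the classes compared here.

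Other genes of known roles in plasma cells did not pass the adjusted threshold with these 2 libraries. Tnfrsf17, which encodes the survival receptor BCMA, lay at 78.9 and 35.5 CPM in IgG3 cells against 240.5 and 219.9 CPM in other cells (log2 -2.11, SE 0.25, edgeR adjusted p = 0.0986). Grn, which encodes the lysosomal and secreted protein progranulin, lay at 859 and 443 CPM against 375 and 233 CPM (log2 0.96, edgeR adjusted p = 0.123). Cxcr3, a chemokine receptor gene, lay at 197 and 226 CPM against 96.6 and 109 CPM (log2 0.93, edgeR adjusted p = 0.232). In each of these 3 genes the groups did not overlap. How many of all genes tested had no overlap was not counted, here or for Pld4, so this is a description only.

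No member of the 26 program lists or the 7 cell type lists passed the threshold against other cells, since Txndc5 and Pld4 stand in none of them. Of 18 integrated stress response genes tested, 2 had a fitted value above 0 and the median was -0.47. Of 24 G2/M genes, 22 had a fitted value above 0 with a median of 0.52, but this rests on 1 library: their sum was 146 CPM in IgG3 cells against 172 CPM in other cells with 2NBDG uptake, and 2475 against 1525 CPM without. Of 28 unfolded protein response genes 23 were above 0, with a median of 0.22. All 13 mitochondrially encoded genes were below 0, with a median of -0.20, and the median of all genes tested was -0.01. The sum of these 13 was nearly alike with 2NBDG uptake, at 30611 CPM in IgG3 cells against 30769 CPM in other cells. Without uptake it was 24977 against 27551 CPM. Of 23 citric acid cycle genes, 22 were above 0, with a median of 0.20. The ER chaperone gene Hsp90b1 had 7699.9 and 11787 CPM in IgG3 cells, against 4727 and 7865 CPM in other cells, and Slc3a2, the heavy subunit of amino acid transporters, had 1177 and 701 CPM, against 1753 and 938 CPM. Both had an edgeR adjusted p of 0.325.

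IgG3 cells of the other gates, which the choice of the 131 members did not use, gave the same order. Txndc5 lay at 1369 CPM in IgG3 cells and 2731 CPM in other cells of the B220-2NBDG+ spleen, at 855 and 2516 CPM in the B220-2NBDG- spleen, and at 988 and 2619 CPM in bone marrow. Pld4 lay at 216 and 50.5 CPM, 333 and 51.8 CPM, and 188 and 37.5 CPM in the same libraries. These IgG3 sums rest on 95, 54 and 21 UMIs of Txndc5 and on 15, 21 and 4 UMIs of Pld4, so their precision is low. Txndc5 was lower and Pld4 higher in IgG3 cells in each of the 5 libraries.

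**Figure D2:**
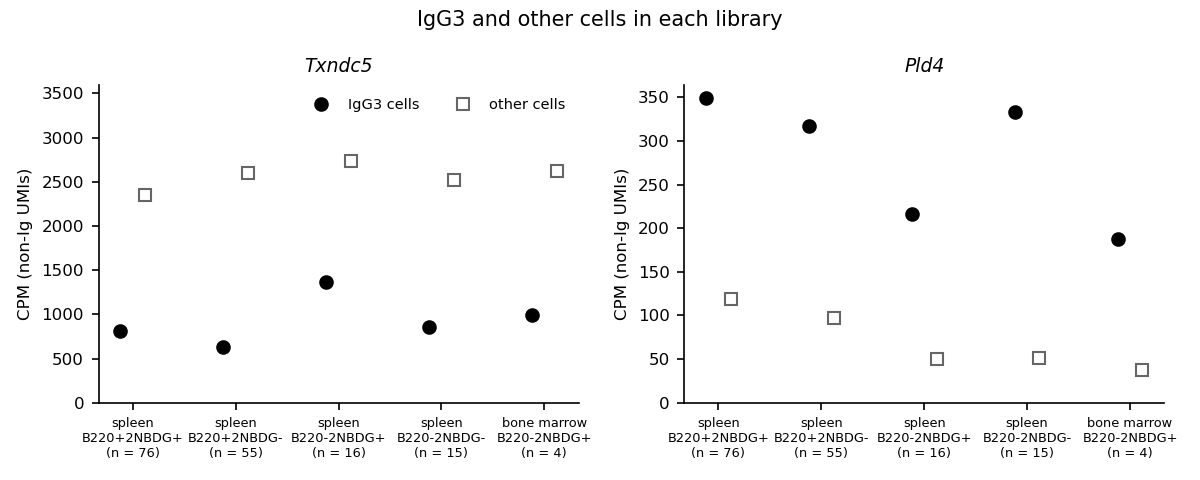
Summed levels of Txndc5 and Pld4, in CPM of non-immunoglobulin UMIs, in IgG3 cells (filled circles) and other cells (open squares) of each of the 5 libraries, with the number of IgG3 cells as n. IgG3 cells lie below the other cells of their library for Txndc5 and above them for Pld4 in each of the 5 libraries, down to the 4 IgG3 cells of bone marrow.

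Fitting the 4 spleen libraries together, as an alternative that reuses the 2 B220+ libraries, widened the list. Whether the 4 came from different mice is not stated in the labels, so the p-values below measure the spread between libraries and no more. Of 8638 genes, 143 passed (1.66%; 33 higher, 0.382%, and 110 lower, 1.27%), with 22 of the higher and 87 of the lower genes on the same side of 0 in all 4 libraries. Txndc5 had a fitted value of -1.80 (SE 0.13, edgeR adjusted p = 5.20e-41) and Pld4 of 1.64 (SE 0.16, edgeR adjusted p = 6.65e-20). Tnfrsf17 was lower in IgG3 cells (log2 -2.37, edgeR adjusted p = 4.37e-26), as was the joining chain gene Jchain (log2 -1.14, edgeR adjusted p = 1.58e-19). Grn (1.21), Cxcr3 (0.95), the integrin gene Itga4 (0.74) and the cyclin gene Ccnd2 (0.73) were higher. Of 19 integrated stress response genes, 6 were lower and 0 higher, with a median of -0.71 against -0.07 for all genes. They were Asns, Chac1, Phgdh, Slc3a2, Slc7a5 and Mthfd2, genes of amino acid synthesis, glutathione breakdown, amino acid transport and one-carbon metabolism. The 2 B220- libraries add 16 and 15 IgG3 cells, and of 17 survival genes Bcl2, Tnfrsf17 and Tnfrsf13b were lower.

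The other cells were a mixture of classes, in which IgM cells numbered 441 of 1050 in the 2NBDG+ library and 710 of 1167 in the 2NBDG- library, so IgG3 cells were next set against single classes. Txndc5 was low in all 4 IgG classes. Its level was 810.0 and 630.1 CPM in IgG3 cells, 1093 and 1211 CPM in IgG2c cells, 988 and 1052 CPM in IgG2b cells and 789.5 and 785 CPM in IgG1 cells, against 3575 and 3463 CPM in IgM cells and 2983 and 2673 CPM in IgA cells. IgG3 cells were the lowest of the 6 classes in the 2NBDG- library and next to IgG1 cells, which were lowest, in the 2NBDG+ library. IgG1 cells numbered 32 and 10, and IgG3 was not tested against them.

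Pld4 followed a graded order over the same classes. It lay at 349 and 317 CPM in IgG3 cells and at 322 and 272 CPM in IgG1 cells, a difference that was not tested. The IgG1 values rest on 44 and 17 UMIs. IgG2b cells followed with 195 and 124 CPM and IgG2c cells with 167 and 118 CPM. IgM cells had 73.2 and 92.5 CPM and IgA cells 20.5 and 7.36 CPM. IgG3 cells were highest in both libraries.

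**Figure D3:**
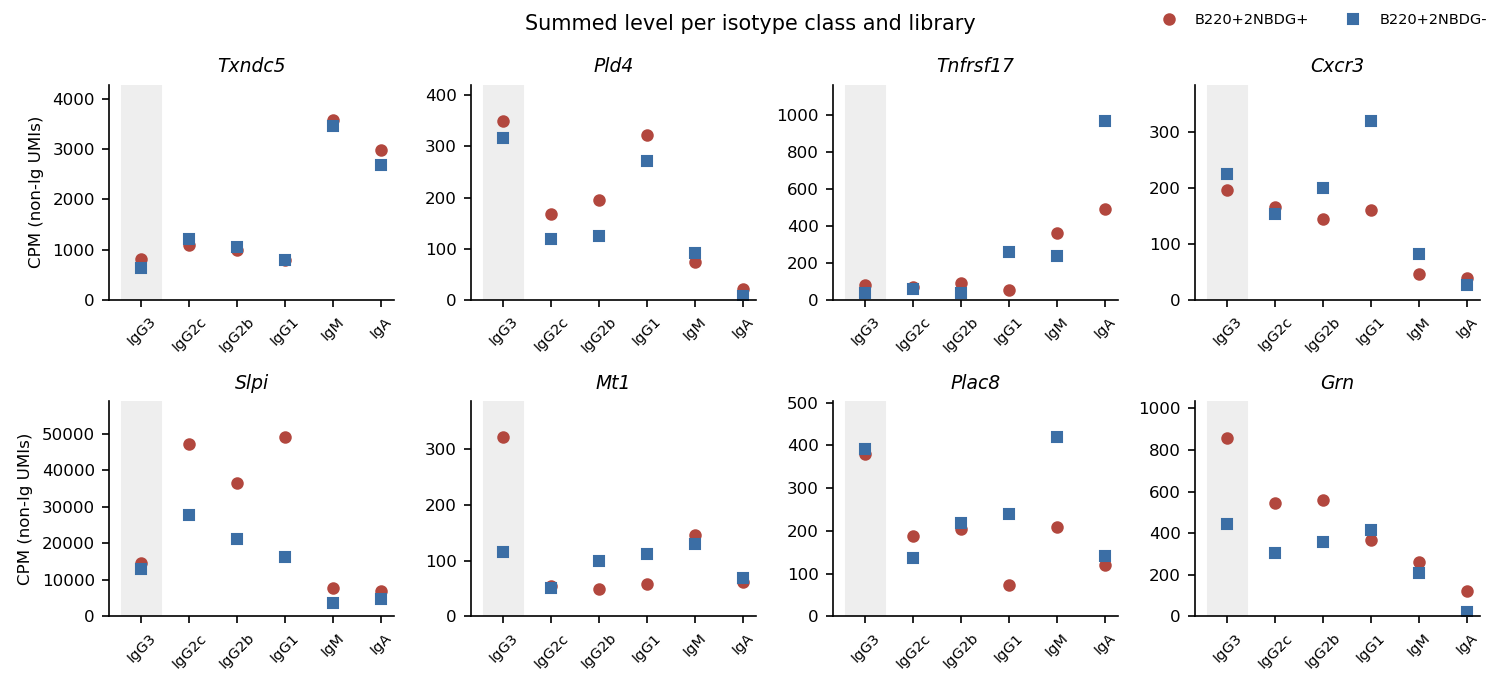
Summed levels of 8 genes, in CPM of non-immunoglobulin UMIs, by isotype class in the B220+2NBDG+ library (red circles) and the B220+2NBDG- library (blue squares), with IgG3 cells shaded. Txndc5 is low in the 4 IgG classes, Pld4 is highest in IgG3 cells, Slpi in IgG3 cells lies between the other IgG classes and the IgM and IgA cells, and the Mt1 level of IgG3 cells stands out in the 2NBDG+ library, where 1 cell held 66% of it.

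Against IgG2c cells, their most numerous IgG neighbours (309 and 253 cells), IgG3 cells differed in 5 of 5533 genes (0.0904%), 3 higher (0.0542%) and 2 lower (0.0361%). At an unadjusted p under 0.05 there were 250. Slpi, which encodes a secreted protease inhibitor, had 14632 and 13060.4 CPM in IgG3 cells, against 47182 and 27657 CPM in IgG2c cells. It was 2.71-fold lower (log2 -1.44, SE 0.19, edgeR adjusted p = 5.80e-05), with both IgG3 sums below both IgG2c sums. Txndc5 was 1.71-fold lower (log2 -0.77, SE 0.15, edgeR adjusted p = 0.0159), and Pld4 was 2.21-fold higher (log2 1.14, SE 0.19, edgeR adjusted p = 0.00168). Plac8, a gene of the marginal zone and B-1 list, had 379 and 391 CPM in IgG3 cells, against 188 and 136 CPM in IgG2c cells (log2 1.14, SE 0.23, edgeR adjusted p = 0.0207), but passed in only 5 of 10 alternatives. Of the 5 calls DESeq2 kept Slpi alone, and Pld4 was also lost at 90% dominance.

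Mt1, a metallothionein gene whose product binds zinc and copper, gave the steepest rise against IgG2c cells, and 1 cell carried much of it. Its level was 322 and 116 CPM in IgG3 cells, against 55 and 50.6 CPM in IgG2c cells (log2 1.96, SE 0.28, edgeR adjusted p = 0.000209). In the 2NBDG+ library 1 IgG3 cell held 70 of the 106 Mt1 UMIs, or 66%, and 18 of 76 cells had any. Without that cell, left out after the values were seen, IgG3 cells of this library had 112 CPM, still above the 55 CPM of IgG2c cells; this was not tested again.

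The other program lists did not separate IgG3 from IgG2c cells. Of 28 unfolded protein response genes, 0 passed and 24 were above 0, with a median of 0.24, and of 11 MHC class II genes 0 passed and 10 were below 0, with a median of -0.18, beside -0.01 for all genes. Plac8 was the member called among 10 marginal zone and B-1 genes tested, which had a median of 0.24. Of 8 T-bet and interferon gamma genes 0 passed, and Cxcr3 lay at 197 and 226 CPM in IgG3 cells, against 167 and 153 CPM in IgG2c cells. These counts of 0 are from edgeR with 250 genes of the whole table at an unadjusted p under 0.05, and DESeq2 called 2 genes in all.

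Against IgG2b cells (135 and 100 cells), 6 of 5533 genes passed (0.108%), 2 higher (0.0361%) and 4 lower (0.0723%), with 250 at an unadjusted p under 0.05. Pld4 was higher (log2 1.02, SE 0.20, edgeR adjusted p = 0.0269) and Slpi lower, at 14632 and 13060.4 CPM in IgG3 cells against 36529.8 and 21092 CPM in IgG2b cells (log2 -1.02, SE 0.18, edgeR adjusted p = 0.0133). Apoe, which encodes a lipid carrier, had 203 and 485 CPM in IgG3 cells, against 416 and 2345 CPM in IgG2b cells (log2 -1.85, SE 0.32, edgeR adjusted p = 0.0121), and its groups overlapped between libraries. Vpreb3, a gene of early B cells related to the surrogate light chain, had 45.5 and 93.7 CPM against 169 and 190.1 CPM (edgeR adjusted p = 0.046), with 8 of its 15 UMIs in 1 IgG3 cell of the 2NBDG+ library. The predicted gene Gm8369 was lower on 5 and 9 UMIs, and Mt1 was higher (edgeR adjusted p = 0.0298), although without its top cell it lay at 112 CPM, against 49.5 CPM in IgG2b cells, with 2NBDG uptake and at 116 against 99.4 CPM without it. The 6 calls are fragile: 0 passed with cycling cells left out and 0 with DESeq2, and Txndc5 was not called (log2 -0.55, edgeR adjusted p = 0.502).

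Against IgM cells the difference was broader, with 135 of 5533 genes (2.44%), 43 higher (0.777%) and 92 lower (1.66%), and 723 at an unadjusted p under 0.05. Some genes of amino acid supply were lower in IgG3 cells. Of 16 integrated stress response genes, 6 were lower and 0 higher, and the median was -0.83 with 1 of 16 above 0, beside 0.01 for all genes. Slc3a2 had 1177 and 701 CPM in IgG3 cells, against 2704 and 1292 CPM in IgM cells (log2 -1.18, SE 0.14, edgeR adjusted p = 2.23e-06). The others included the light transporter chain gene Slc7a5 (-1.20), the asparagine synthetase gene Asns (-1.60) and the serine synthesis gene Phgdh (-0.84). The mitochondrial folate enzyme gene Mthfd2 (-1.76) and Chac1 (-2.43, on 2 and 3 UMIs in IgG3 cells), whose product breaks down glutathione, completed the 6. Levels in IgG2c cells were close to these: Slc3a2 had 1177 and 701 CPM in IgG3 cells against 1001 and 428 CPM in IgG2c cells, Asns 48.5 and 61.4 CPM in IgG3 cells against 65.7 and 55.9 CPM in IgG2c cells, and 0 of the 16 passed against IgG2c or IgG2b cells by edgeR.

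A minority of ER folding genes were higher. Of 28 unfolded protein response genes, 5 were higher in IgG3 than in IgM cells and 0 lower, with a median of 0.26. Hsp90b1, the ER chaperone GRP94, had 7699.9 and 11787 CPM in IgG3 cells, against 3426 and 6739.8 CPM in IgM cells (log2 0.86, SE 0.12, edgeR adjusted p = 4.96e-05). Hspa5, the chaperone BiP (log2 0.56), the disulfide isomerase gene Pdia3 (0.49), and Manf (0.57) and Creld2 (0.55), whose products are induced by ER stress, were the others; Pdia3 and Manf did not pass at 90% dominance. Txndc5, which is in no list, was lower, at log2 -2.42 (SE 0.15, edgeR adjusted p = 8.85e-13).

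Receptors and signalling genes of B cells were among those lower than in IgM cells. Jchain, whose product joins IgM and IgA into polymers, had 140909 and 52581 CPM in IgG3 cells, against 221811 and 115704 CPM in IgM cells (log2 -1.01, SE 0.17, edgeR adjusted p = 0.000364). Tnfrsf17 had 78.9 and 35.5 CPM against 359 and 236 CPM (log2 -2.47, edgeR adjusted p = 5.43e-05). Of 9 Fc and inhibitory receptor genes, 3 were lower and 0 higher, although 5 lay above 0 and the median was 0.08. The lower ones were Lag3 (log2 -2.40), Cd200 (-3.22) and Btla (-4.14). In IgG3 cells Lag3 rested on 3 and 3 UMIs, Cd200 on 3 and 0, and Btla on 1 and 0, so these ratios are imprecise. The phosphatase gene Ptpn6, which dampens antigen receptor signals, was lower at 18.2 and 38.8 CPM, against 130 and 111 CPM (log2 -2.21), and so were the IgM Fc receptor gene Fcmr (-1.69), the survival gene Bcl2 (-2.09) and Nfkbia, an inhibitor of NF-kappa B (-1.24). Lag3, Cd200, Btla, Ptpn6, Fcmr and Bcl2 did not pass with DESeq2. IgG2c cells were low in several of these genes too. They had 29.5 and 27.3 CPM of Ptpn6, 8.05 and 7.98 CPM of Bcl2 and 67.1 and 58.6 CPM of Tnfrsf17. Fcmr lay at 51.7 and 62.5 CPM in IgG2c cells, against 57.6 and 16.2 CPM in IgG3 cells. By edgeR, 0 of the 9 Fc and inhibitory receptor genes passed against IgG2c or IgG2b cells. Serpina3f, a serine protease inhibitor gene, was at 0 in the IgG3 cells of both libraries, against 48.6 and 24.2 CPM in IgM cells; raised to a floor of 3 UMIs per library, that is a log2 ratio of -2.42 or lower with 2NBDG uptake and -1.32 or lower without it.

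Higher than in IgM cells were Slpi (log2 1.28, edgeR adjusted p = 5.12e-05), Pld4 (1.84) and Grn (1.29). Cxcr3 had 197 and 226 CPM in IgG3 cells, against 45.9 and 82.6 CPM in IgM cells (log2 1.59, edgeR adjusted p = 2.30e-05). Fgd2, a gene of actin regulation, had 33.4 and 25.8 CPM against 3.64 and 1.61 CPM (log2 3.40, SE 0.59, edgeR adjusted p = 0.000512). Gbp2, an interferon-induced GTPase gene, had 72.8 and 6.46 CPM against 6.36 and 3.5 CPM, so that 24 of its 26 IgG3 UMIs came from 1 library. Gm8890 (log2 2.19), Speer1 (2.79), Prg3 (2.00) and Gm8879 (1.72) were further genes of high ratio, and Hspb1, Gm19585, Dock11, Rabgef1 and E330020D12Rik, each with at most 24.3 CPM in either IgG3 sum, of low ratio. The MHC class II gene H2-Eb1 (0.63), the immunoproteasome gene Psmb8 (0.52), the fucosyltransferase gene Fut8 (0.55) and Ccnd2 (0.88) were also higher. IgG2c cells were close to IgG3 cells in these genes. They had 867 and 1137 CPM of H2-Eb1, 1082 and 1061 of Psmb8, 400.5 and 373 of Fut8 and 265 and 399.9 of Ccnd2. IgG3 cells had 877 and 986, 1138 and 1218, 376 and 313, and 309 and 427 CPM. By edgeR, 0 of these genes passed against IgG2c or IgG2b cells. Against IgM cells all 22 G2/M genes tested were above 0, with a median of 0.82, and Cdk1 and Cdc20 passed. In the 2NBDG+ IgG3 cells Cdk1 rested on 2 UMIs and Cdc20 on 1. By the cycling call defined below, 1.33% of IgG3 and 1.37% of IgM cells were cycling with 2NBDG uptake. Without uptake the shares were 23.6% and 13.9%, beside 17.8% of IgG2c cells and 20% of IgG2b cells.

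Against IgA cells (97 and 77 cells) IgG3 cells differed most, in 292 of 5533 genes (5.28%), 137 higher (2.48%) and 155 lower (2.8%), with 925 at an unadjusted p under 0.05. Ccr10, the receptor for a chemokine of mucosal epithelia, had 18.2 and 12.9 CPM in IgG3 cells, against 465 and 255 CPM in IgA cells (log2 -4.75, SE 0.41, edgeR adjusted p = 1.98e-09). The gut-homing integrin gene Itgb7 had 81.9 and 51.7 CPM against 215 and 596 CPM (log2 -2.72). Of 12 homing and adhesion genes, 4 were lower, among them Klf2 and S1pr4, and 1, Cxcr3, was higher (log2 2.43, edgeR adjusted p = 2.15e-06). The list as a whole was balanced, with 6 genes above 0, 6 below and a median of -0.03. In IgG2c cells Ccr10 lay at 20.1 and 35.9 CPM, and 0 of the 12 genes passed against IgG2c or IgG2b cells by edgeR.

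A further group led by Anxa2 and Vim was lower than in IgA cells, and for both genes the margin was wider in the library without 2NBDG uptake. Of 11 genes of that list, 8 were lower and 1 higher, with a median of -1.73. Anxa2, a membrane-binding annexin, had 3.03 and 9.69 CPM in IgG3 cells, against 109 and 1089 CPM in IgA cells (log2 -6.55, SE 0.52, edgeR adjusted p = 2.60e-10). Vim, an intermediate filament gene, had 18.2 and 109.9 CPM against 67.6 and 738 CPM. Lgals3 was at 0 in both IgG3 sums, against 24.6 and 179 CPM. S100a10 and S100a11 were called but their direction rests on 1 library: with 2NBDG uptake IgG3 cells had 225 and 124 CPM of these, against 184 and 115 CPM in IgA cells. Apoe was the exception, at 203 and 485 CPM against 55.3 and 29.4 CPM (log2 2.70). In IgG2c cells Anxa2 lay at 9.39 and 11.3 CPM. By edgeR, 0 genes of the list passed against IgG2c cells and 1, Apoe, against IgG2b cells.

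Several antigen presentation genes were higher in IgG3 than in IgA cells. Of 12 MHC class I genes, 7 were higher and 0 lower, with a median of 0.88. B2m, the invariant chain of class I, had 19957 and 11083 CPM in IgG3 cells, against 7542 and 4719 CPM in IgA cells (log2 1.10, SE 0.13, edgeR adjusted p = 6.03e-07). H2-K1 (1.14), H2-D1 (0.98), H2-Q7 (1.91), the peptide transporter gene Tap1 (0.92) and the immunoproteasome genes Psmb8 (0.86) and Psmb9 (0.90) made up the rest. Of 11 MHC class II genes, 5 were higher and 0 lower, with a median of 0.81. Cd74, the class II invariant chain, had 21379 and 12759.9 CPM, against 8687 and 7593 CPM (log2 0.83, edgeR adjusted p = 0.000171), and H2-Aa, H2-Ab1, H2-Eb1 and the protease gene Ctss were the others. By edgeR, 0 of these class I and class II genes passed against IgG2c or IgG2b cells. In IgG2c cells B2m lay at 20501 and 12944 CPM and Cd74 at 18846 and 16411 CPM.

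Plasma cell genes split in this comparison. Of 18 identity genes, Xbp1 (log2 0.54), Mzb1 (0.43), Slamf7 (0.54), Cd38 (2.25) and Fkbp11 (0.66) were higher in IgG3 cells, and Jchain (-1.38) and Tnfrsf17 (-3.85) were lower. Tnfrsf17 had 78.9 and 35.5 CPM in IgG3 cells, against 489.7 and 966 CPM in IgA cells. Of 12 immediate early genes, which respond within minutes to stimulation and to cell handling, Fos (1.34), Jun (1.62), Ier2 (1.03), Dusp1 (1.78) and Btg2 (0.97) were higher and Nfkbia (-0.99) was lower. By edgeR, 0 of the 12 passed against IgG2c or IgG2b cells. Pld4 had its widest margin against IgA cells, at 349 and 317 CPM against 20.5 and 7.36 CPM (log2 4.30, SE 0.33, edgeR adjusted p = 1.95e-10), as had Grn, at 859 and 443 CPM against 121 and 22.1 CPM (log2 2.91).

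**Figure D4:**
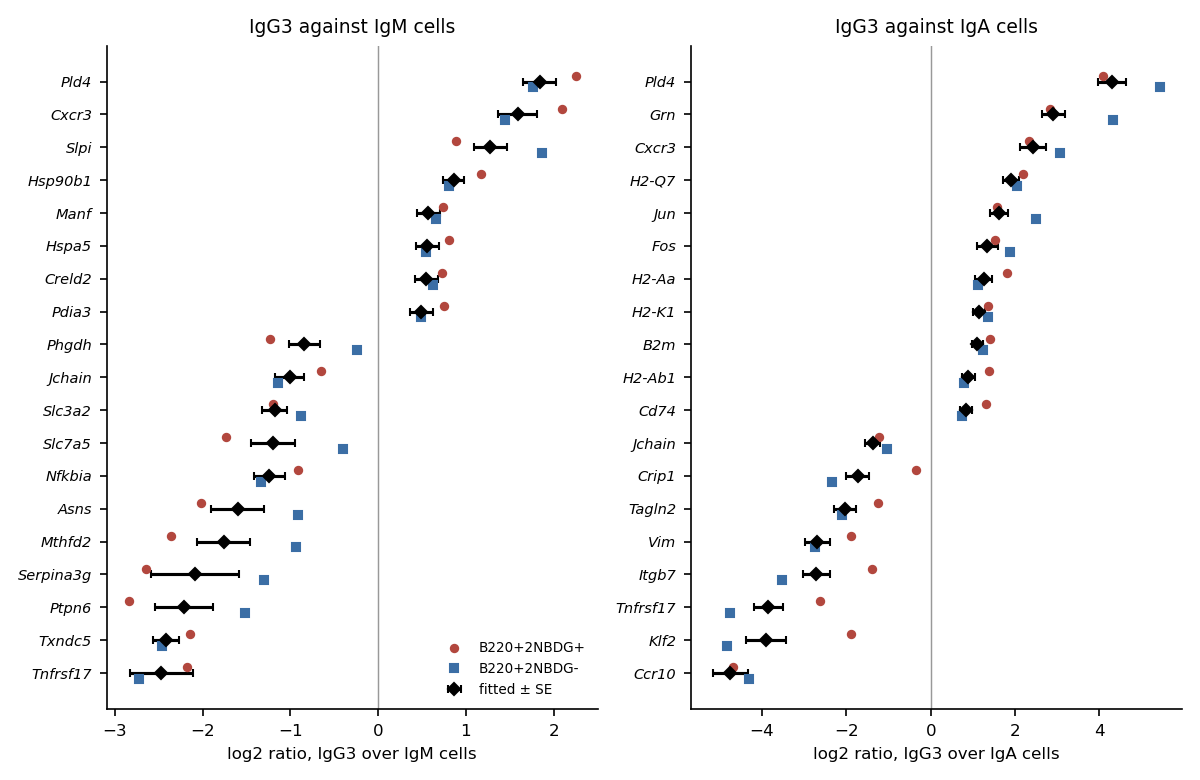
Log2 ratio of IgG3 over IgM cells (left) and over IgA cells (right) for named genes, with the ratio of CPM in the 2NBDG+ library (red circles) and the 2NBDG- library (blue squares) and the fitted value with its standard error (black diamonds). Values below 0 are lower in IgG3 cells; Txndc5 and the amino acid supply genes lie below 0 against IgM cells, and antigen presentation genes lie above 0 against IgA cells.

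Within IgG3 cells, genes of cell division were low in those with 2NBDG uptake and high in those without. Each gate had 1 library, so values are given with counting intervals and without a test. The 1548 genes set side by side reached 100 CPM and 30 UMIs in whichever gate was higher. Of them, 52 were at least 2-fold higher with 2NBDG uptake (3.36%) and 177 at least 2-fold lower (11.4%). The median log2 ratio was -0.28, so the balance of directions depends on the total used: scaled to all UMIs the counts were 12 and 738, and without Jchain 77 and 130.

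The 8 lowest ratios were of genes of DNA packaging and division, which entered through their level without uptake. Lowest was Ube2c. This gene, which serves the anaphase-promoting complex, had 2 UMIs with 2NBDG uptake and 100 without, a level 35.5-fold lower (95% interval 11.8 to 175) once counts below 3 were raised to 3. Cdc20 was next (28.0-fold, on 1 and 79 UMIs). Hmgb2, a chromatin protein gene abundant in dividing cells, had 15 and 335 UMIs and was 23.8-fold lower (14.2 to 43), against 7.22-fold lower in the other cells of the same libraries. Birc5 (23.4-fold), Cdk1 (20.2-fold), Cenpa (17.4-fold), Ccna2 (16.3-fold) and Spc24 (16.3-fold) followed. Summed over the G2/M list, IgG3 cells had 146 CPM with 2NBDG uptake and 2475 CPM without, a ratio of 0.0588, against 0.113 in other cells.

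The share of cycling cells moved with these genes. Each cell was thinned to 1000 non-immunoglobulin UMIs and counted as cycling with 3 or more of them from the cell cycle lists. The share was 1 of 75 IgG3 cells (1.33%, exact 95% interval 0.0338 to 7.21) with 2NBDG uptake, and 13 of 55 (23.6%, 13.2 to 37) without. In other cells it was 19 of 1041 (1.83%) with uptake and 182 of 1162 (15.7%, 13.6 to 17.9) without. Without uptake it was 45 of 253 IgG2c cells (17.8%, 13.3 to 23.1) and 20 of 100 IgG2b cells (20%, 12.7 to 29.2). Both intervals overlapped that of IgG3 cells. Without thinning the shares were 19.7% and 43.6% in IgG3 cells and 29.5% and 44.9% in other cells, so the size of the gap depends on the thinning. The calls use these same genes, so leaving out cycling cells lowers them by construction.

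**Figure D5:**
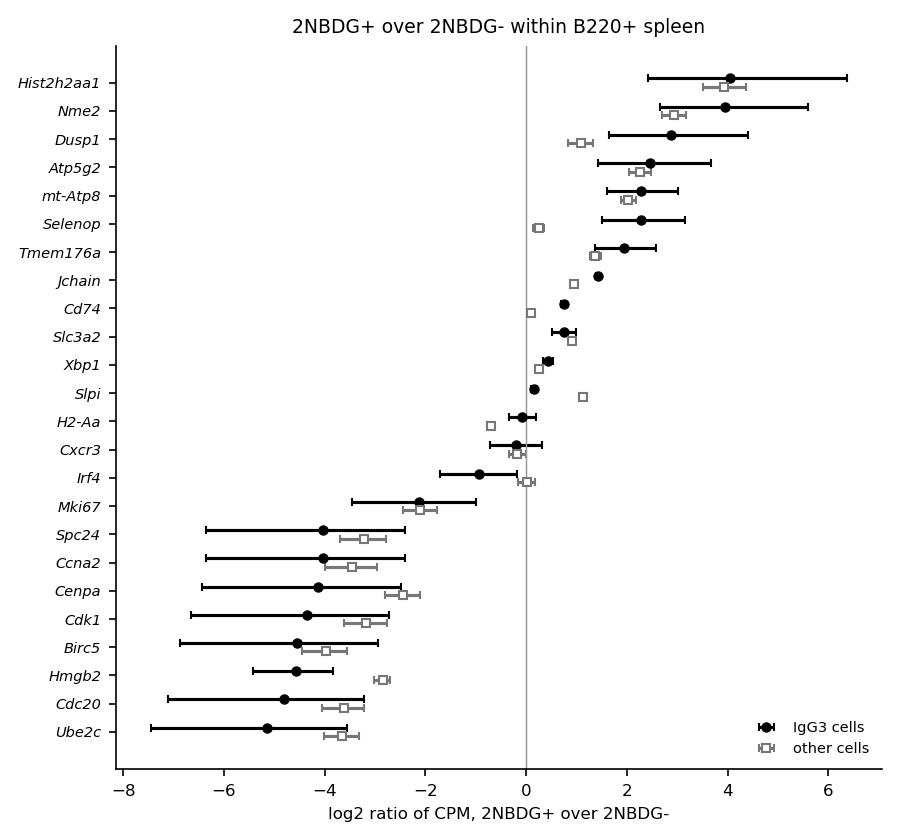
Log2 ratio of CPM, 2NBDG+ over 2NBDG-, for named genes in IgG3 cells (filled circles) and in the other cells of the same libraries (open squares), with exact conditional binomial 95% intervals that cover counting error only. Cell cycle genes lie far below 0 in both, while the ratios, not always the levels, of Dusp1 and Selenop are higher in IgG3 cells than in other cells.

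The genes highest with 2NBDG uptake in IgG3 cells were, for the most part, as high in the other cells. Hist2h2aa1 had 53 and 3 UMIs, a ratio of 16.6 (5.38 to 83), against 15.2 in other cells. Atp5g2 (5.53 against 4.79) and mt-Atp8 (4.87 against 4.09) were alike, and Nme2 had 15.4 (6.34 to 48.7) against 7.61. Since each gate was 1 library, a difference between the gates and one between the libraries cannot be told apart for these genes. Dusp1, an immediate early phosphatase gene, had 47 and 6 UMIs and a ratio of 7.35 (3.14 to 21.1), against 2.12 in other cells. Selenop, a selenium transport protein gene, had 83 and 16 UMIs and a ratio of 4.87 (2.83 to 8.91), against 1.19, with 22.9% of the 83 UMIs in 1 cell. Its level with uptake was alike, at 252 CPM in IgG3 and 247 CPM in other cells. Without uptake it was 51.7 and 208 CPM. Tmem176a had a ratio of 3.85 (2.57 to 5.95), against 2.6.

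Genes of secretion and antigen presentation differed less. Jchain was 2.68 times as high with 2NBDG uptake in IgG3 cells (2.63 to 2.73), against 1.93 in other cells, and Cd74 1.68 times (1.61 to 1.74), against 1.07. Slpi had a ratio of 1.12 (1.07 to 1.17) in IgG3 cells, against 2.18 in other cells, so its level was nearly alike in IgG3 cells of both gates. Irf4, a plasma cell transcription factor gene, was 1.91-fold lower with uptake (1.13 to 3.29), with 24 and 43 UMIs, against a ratio of 1.01 in other cells; with every IgG3 cell weighted equally its log2 ratio was -0.04. Txndc5 (1.29, 1.06 to 1.55) and Pld4 (1.1, 0.834 to 1.46) were close to 1. Of the genes of glucose import and its first step, the transporter gene Slc2a1 had 2 and 4 UMIs, too few to show a difference at this depth. The hexokinase gene Hk2 had 3 and 15 UMIs. Its log2 ratio was -2.41, and between -3.09 and -0.91 over the alternative settings, on few counts. The glycolysis list summed to a ratio of 0.522 in IgG3 cells, against 0.61 in other cells.

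Light chains, which the heavy-chain rule did not use, were nearly all called kappa. Lambda cells were 3 of 75 (4%, exact 95% interval 0.833 to 11.2) and 1 of 54 (1.85%, 0.0469 to 9.89) IgG3 cells with and without 2NBDG uptake, against 3 of 1046 (0.287%) and 15 of 1152 (1.3%) other cells. The call set Igkc against Iglc2, and Iglc1 and Iglc3 were not analysed here. Cells that use either of these could therefore be counted as kappa, and the lambda shares are those of Iglc2 alone. IgG3 cells were not of 1 kappa variable gene. A variable gene could be called in 42 cells with uptake, which used 19 genes, and in 28 without, which used 18.

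Usage followed no single gene across the gates. Igkv3-4 was found in 9 of 42 IgG3 cells with uptake (21.4%, 10.3 to 36.8), against 148 of 286 IgM cells (51.7%), 25 of 79 IgG2b cells (31.6%) and 29 of 208 IgG2c cells (13.9%). Without uptake it was found in 1 of 28 IgG3 cells (3.57%) and 117 of 396 IgM cells (29.5%). Igkv5-39 was found in 8 of 42 (19%) with uptake and 3 of 28 (10.7%) without, against 76 of 635 (12%) and 59 of 602 (9.8%) other cells. Igkv13-84 was found in 5 of 28 IgG3 cells without uptake (17.9%, 6.06 to 36.9), against 10 of 602 other cells (1.66%, 0.799 to 3.03), and in 1 of 42 with uptake. IgG2b cells without uptake had it in 4 of 44 (9.09%, 2.53 to 21.7), an interval that overlapped that of IgG3 cells. Cells that share a variable gene may descend from 1 cell, so these shares are not independent counts. A heavy-chain variable gene could be called in 1 IgG3 cell in all, and pairs of heavy and light variable genes could not be counted. The kappa calls depend on the rule, since a stricter call of 20 UMIs and 90% left 0 cells with uptake and 1 without.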

How the data were processed

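Per the submitters' processing notes the authors processed the 10x Genomics 3' version 2 libraries with Cell Ranger 2.1 on GRCm38, and the deposited tables hold raw UMI counts for 33456 genes. The filter that chose the barcodes is not given in the sources used here, and the lowest total was above 500 UMIs. Gene positions and 266 immunoglobulin genes came from GENCODE M21. Immunoglobulin genes were left out of tests and totals.

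UMIs were summed per class and library and tested with edgeR 4.0.16 (R 4.3.3; quasi-likelihood, TMM, filterByExpr, Benjamini-Hochberg threshold 0.05). The library was a block because both sums of a pair come from the same pooled mice. One fit set IgG3 against other cells, another held 6 classes jointly; classes needed 10 cells per library. DESeq2 1.42.0 was an alternative. Log2 values of single libraries are ratios of CPM, not TMM-normalised. The fit was tested on simulated data. Doublets were called with Scrublet in scanpy 1.11.5 and kept. Intervals are exact at 95% (scipy 1.17.1) and cover counting error only. A variable gene was called from at least 10 UMIs, 70% from 1 gene.

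Named genes were drawn, though not all of them are given, from these sets: among genes past the threshold with the same sign in both libraries, the 15 highest and 15 lowest against other cells and the 8 and 8 against each class, where that many passed; the 8 and 8 most extreme ratios within IgG3 cells, of which 1 is not reported here; the called members and most abundant members of 26 program and 7 marker lists (482 of 483 genes found); and a fixed set. Grn against other cells and the genes of the closing section were chosen after their values were seen. Members and lists were chosen with earlier results of these data known.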

Additional observations from a re-analysis of the deposited data

How the results depend on the processing

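The counts of called genes rested on few libraries. Against other cells, the 2 calls became 83 with no low-count filter (19.3% of them higher), 39 at 90% dominance (20.5% higher), 38 without cycling cells (31.6% higher), 19 without predicted doublets (36.8% higher), 5 with DESeq2, 1 with other called isotypes as reference and 143 over 4 spleen libraries (23.1% higher). Against IgG2c cells, the 5 calls became 11 with no filter, 3 at 90% dominance and 2 with DESeq2. Against IgG2b cells, the 6 became 10 with no filter, 3 at 90% dominance, 3 without predicted doublets, 0 without cycling cells and 0 with DESeq2. Against IgM cells, the 135 became 89 at 90% dominance. IgG3 and reference sums are paired by library, and without the library block the calls were 0 (other cells), 0 (IgG2c), 0 (IgG2b), 1 (IgM) and 30 (IgA). Txndc5 against other cells passed in 11 of 12 alternatives and Pld4 in 10 of 12; both were lost without the block. Leaving out 1 library leaves a ratio and no test. Single genes turned direction: Rrm2 against IgM cells was -0.17 without cycling cells, and without the 2NBDG- library Cdc20 against IgM cells was -0.58 and S100a10 and S100a11 against IgA cells 0.28 and 0.12, while without the 2NBDG+ library the 3 were 1.24, -2.16 and -1.75. At 90% dominance the IgG3 share with 2NBDG uptake was 2.84% (4.34% without uptake) and its cycling share 0%; unthinned, the cycling shares were 19.7% with uptake and 43.6% without. The causes were not tested, except that fewer cells or genes enter some settings by construction.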

Other observations

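Some genes outside the lists, chosen here after their values were seen, also differed between IgG3 cells and IgM or IgA cells; none of them was called against IgG2c or IgG2b cells. Rnf187, a ubiquitin ligase gene, had 646 CPM (2NBDG+) and 595 CPM (2NBDG-) in IgG3 cells, against 238 and 251 CPM in IgM cells (log2 1.21, SE 0.14, edgeR adjusted p = 2.23e-06). Eif4ebp1, which encodes a repressor of cap-dependent translation, had 75.8 and 51.7 CPM, against 266 and 137 CPM in IgM cells (log2 -1.77, SE 0.21, edgeR adjusted p = 2.23e-06). Against IgA cells, the lysosomal protease gene Lgmn had 467 and 465 CPM in IgG3 cells, against 119 and 142 CPM (log2 1.63, SE 0.18, edgeR adjusted p = 1.87e-07). The sulfotransferase genes Chst1 (log2 2.13) and Tpst1 (log2 1.98) were higher as well, and the sodium pump subunit gene Atp1b1 was lower, at 15.2 and 12.9 CPM against 121 and 248 CPM (log2 -3.87, SE 0.44, edgeR adjusted p = 2.71e-07).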
